A study of Mus musculus with 383 samples.

Results

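Epcam-positive cells of a mouse skin squamous cell carcinoma were described one by one, by the genes they held in common and by the genes that set them apart from each other. A well labelled as a single Epcam-positive cell was kept if it had 100000 or more gene reads and 2000 or more detected genes. Mitochondrial genes could take no more than 20% of its gene reads, and spike-ins no more than 50% of gene plus spike-in reads. Of 70 such wells 62 were kept, within a plate of 383 wells of which 380 were to hold a single cell. Of those 380, 325 met the same limits. Epcam is a surface adhesion protein of epithelia, and its presence on a tumour cell marks the epithelial end of the epithelial to mesenchymal transition (EMT).

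The tumours came from mice that carried Lgr5CreER, p53fl/fl and Rosa26-YFP+/+ among their alleles. Cre was driven by Lgr5, a gene of hair follicle stem cells, and YFP marks cells in which Cre had acted, and their progeny. Both sorted populations, the Epcam-positive and the Epcam-negative cells, were YFP-positive, were taken from tumours dissociated with collagenase, and carried the same alleles. Age and strain were not among the labels, and the labels tied no well to an animal or a tumour. The Epcam-positive population was therefore treated as 1 sample. Its cells are no replicates of a condition, and nothing was tested. Each transcriptome was made by Smart-seq2, a full-length cDNA method without molecular identifiers, in 1 plate and 1 sequencing lane. Libraries with little cDNA had been discarded before sequencing, per the labels.

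The 62 cells held 109743 to 730528 gene reads (median 413142), 24840769 in sum, and 3498 to 8878 genes with a read (median 6996). Mitochondrial genes took 3.09% to 12.9% of their reads. The 8 wells left out all fell short of the read minimum, and 4 of them failed by reads alone. The nearest wells on either side of that minimum had 109743 and 96939 reads. No pair of cells had identical counts. The cells lay in plate rows A, B and C (19, 20 and 23 cells), with 31 in a left block (columns 1 to 12) and 31 in a right block (columns 13 to 24). The Epcam-negative cells all lay in other rows, so that population and plate row cannot be told apart. The well of row B that was labelled as holding no cell went against its label: it held 99241 gene reads and 8248 genes, with Krt14 at 9029 and Epcam at 695 reads per 1000000 gene reads (CPM). Cells thinned to the same number of reads had 2968 to 7210 genes. That well entered no value below.

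Stratified epithelium is held together by keratin filaments, which desmosomes join from cell to cell and hemidesmosomes anchor to the basement membrane. Krt5 and Krt14 pair to form the filaments of basal keratinocytes, while Krt6a, Krt6b, Krt16 and Krt17 are the keratins of wounded, hyperproliferative and hair follicle epithelium. Squamous carcinoma cells keep much of this machinery and can also take on parts of the differentiation, inflammatory or mesenchymal programmes, so that cells of the same tumour may differ widely.

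All 6 markers given for these cells were found. Values in this and the following paragraphs are levels in CPM, from reads summed over the 62 cells unless a cell is named, and a gene was called present in a cell at 5 or more of 100000 thinned reads, which is 50 CPM. Epcam itself (chr17:87635979-87651129, GRCm38) stood at 1069 CPM (95% Poisson interval 1056 to 1082, counting error only) and was present in 60 cells, with 14.2 in the lowest cell, 872 in the median cell and 3611 in the highest. Krt14 (chr11:100203162-100207548) was present in all 62 cells, at 274.1 in the lowest, 11597 in the median and 38832 in the highest. Krt5 (chr15:101707070-101712898), its filament partner, was likewise present in every cell, at 204.1, 4335 and 12358. Krt17 was present in 60 cells and spanned 17.6 to 35897 around a median of 3226. Cdh1, the cadherin of adherens junctions, reached 202.01 CPM and was present in 48 cells. Trp63, the transcription factor that maintains basal keratinocytes, reached 259.1 CPM and was present in 52 cells. In the Epcam-negative population the summed levels were 22.7 CPM for Epcam, 1836 for Krt14, 3.90 for Cdh1 and 45.3 for Trp63. Trp53, the floxed gene, was at 25.2 CPM and present in 9 cells. Its gene count does not show which exons the reads came from, so it does not check the deletion.

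Defining markers of leukocytes, endothelium and pericytes were low or at 0, while some lipid genes and simple keratins on other lists were present in many cells. Of the 15 immune markers 6 had no read at all, the pan-leukocyte gene Ptprc among them, and no immune marker was present in more than 6 cells. Summed over the list, immune markers were at 0 in the median cell and at 1036 CPM in the highest. Of the 10 endothelial markers none was present in more than 5 cells, and of the 9 pericyte and smooth muscle markers none in more than 7, with Rgs5, Myh11 and Des at 0 reads. The 10 dermal fibroblast markers summed to 4.09 CPM in the lowest cell, 21.2 in the median and 4525 in the highest, against a median of 8103 in Epcam-negative cells. Dcn was present in 6 cells, Col1a2 in 4, Col1a1 in 3 and Dpt in none. Melanocyte, erythroid, muscle and nerve markers were present in at most 7 cells each. The sebocyte list was led by the lipid genes Plin2 and Scd1 (260 and 147.5 CPM, in 41 and 35 cells), with Mc5r, a sebocyte receptor, and Elovl3 at 0. On the Merkel cell list Krt18 was present in 35 cells and Krt8 in 15, both keratins of simple epithelia, with Atoh1, Krt20 and Isl1 at 0. Fabp4, a fatty acid carrier listed as an adipocyte marker, was present in 10 cells and reached 3928 CPM, while Adipoq was present in no cell and Plin1, Cidec and Retn had no read.

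**Figure D1:**
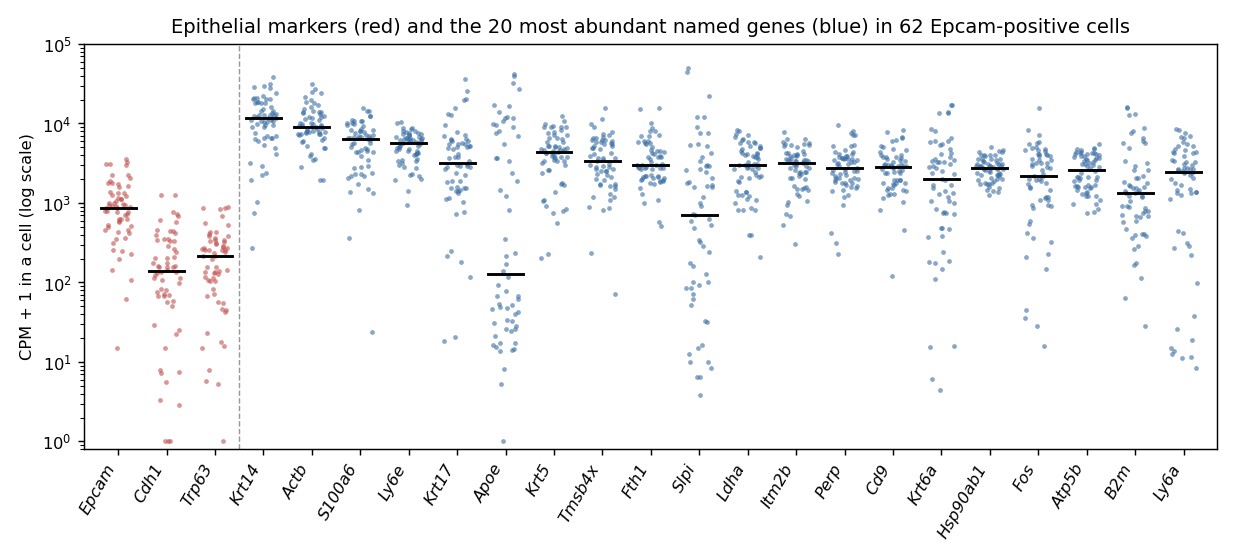
Each point is a cell (62 per gene), with CPM + 1 on a log axis and a black line at the median cell. Red points are Epcam, Cdh1 and Trp63, blue points the 20 named genes with most reads. Hsp90ab1 has a narrow range, from 1250 to 4988 CPM. Apoe runs from 0 to 42449 CPM around a median of 127.7, and Slpi from 2.82 to 50442.

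Per kilobase of merged exon, Krt14 had the highest level of the named genes at 7571 CPM per kb. It was followed by S100a6, a calcium-binding protein, at 4440, and Actb, cytoplasmic actin, at 4035. Next came Krt17 at 3476, B2m, the light chain of MHC class I, at 3262, and Slpi, a secreted inhibitor of leukocyte proteases, at 3137. Tmsb4x, which binds actin monomers, reached 2952, the lipid carrier Apoe 2511, the surface protein Ly6a 2238 and Krt5 2216. Mitochondrial, ribosomal protein, ribosomal RNA and predicted genes were not ranked. Mitochondrial genes took 6.19% of all reads and ribosomal protein genes 2.48%. Keratins took 2.73%, and this share ran from 0.301% in the lowest cell to 9.36% in the highest.

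By reads alone the list was much the same. The 20 named genes with most reads took 9.33% of reads together, from 4.17% to 16.2% per cell. Beside those above they were Ly6e (5650 CPM), the iron store subunit Fth1 (3885), the lactate dehydrogenase Ldha (3434), the membrane protein Itm2b (3268), Perp, a desmosomal protein induced by p53 (3209), and the tetraspanin Cd9 (3156). They also included Krt6a (3093), the chaperone Hsp90ab1 (2859), the early response factor Fos (2848) and the ATP synthase subunit Atp5b (2827). Of these genes, 12 were present in all 62 cells: Krt14, Actb, Ly6e, Krt5, Tmsb4x, Fth1, Ldha, Itm2b, Perp, Cd9, Hsp90ab1 and Atp5b. Apoe was present in 39, the fewest.

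To find which genes vary most, the squared coefficient of variation (CV2) of per-cell CPM was set against the trend of all genes at like mean level, since low genes scatter more. The excess of a gene is log2 of its CV2 over the trend, so that 1 stands for a CV2 2-fold above genes of like level. Of 8529 genes with a mean of at least 10 CPM, 680 (7.97%) were called more variable, with an excess of 1 or more both with all cells and without the gene's highest cell. At an excess of -1 or less, 803 genes (9.41%) were called less variable, or steady. Leaving out the highest cell mattered: 1198 genes had an excess of 1 or more with all cells, and 518 of them lost it. At the limits, Cnn2 was called at 1.0005 and Mtx1 at -1.0001, while Slc22a15 at 0.9993 and Tmem201 at -0.9995 were not. Spike-in RNA, added to the lysis buffer of every well, gave a median CV2 of 0.585 over 17 spikes with 10 or more reads per cell. For genes at like reads it was 1.03, and 11 of the 17 lay below the genes' median. Every spike with a mean of 53.5 or more reads per cell lay below it, but most spikes with fewer reads lay above it. At low reads the spikes therefore do not show that genes vary more than spike-ins.

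**Figure D2:**
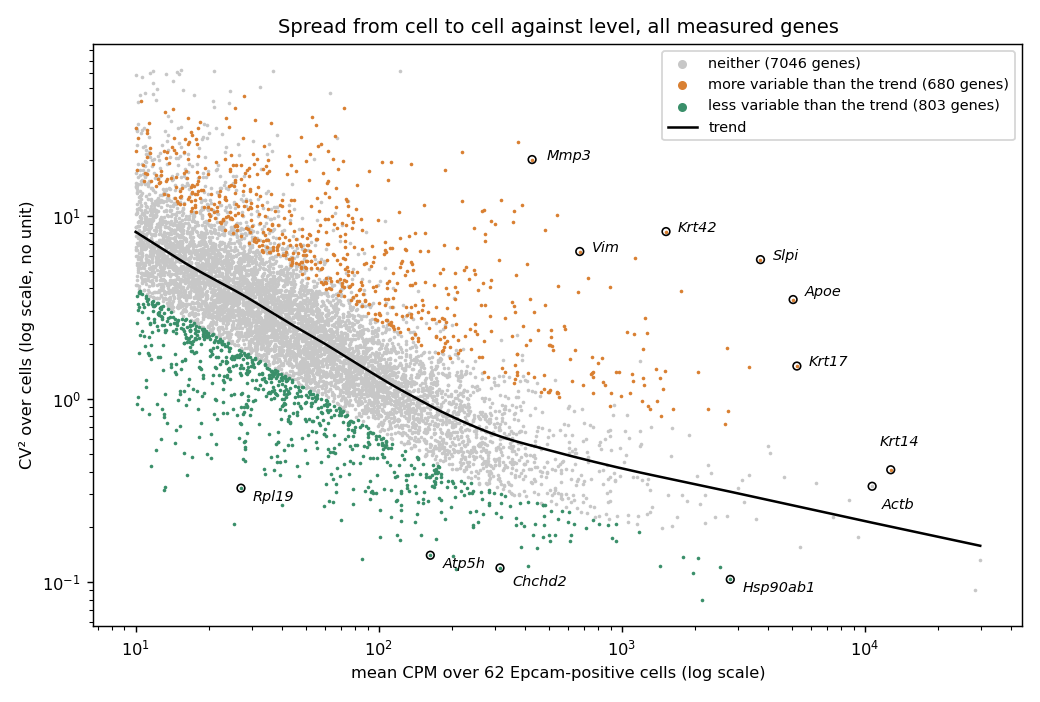
Each point is 1 of 8529 genes, with mean CPM over the 62 cells on the x axis and CV2 on the y axis, both log scales. The black line is the trend, orange points are the 680 genes called more variable and green points the 803 called less variable. Mmp3, Krt42, Slpi and Apoe stand far above the line, and Atp5h, Chchd2 and Rpl19 far below it.

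The 20 most variable genes, among those with at least 50 CPM and present in at least 10 cells, had an excess of 3.60 to 5.19. They include the keratins Krt42, Krt6b, Krt15 and Krt16, the proteases Mmp3 and Mmp9, the lipid carriers Apoe, Clu and Fabp4, and the tight junction gene Cldn4. All 20 had an excess of 1 or more in the left block of the plate and again in the right block. The 20 genes had been picked over these same cells, so this is no independent check. Their 6 highest cells, 9.68% of the cells, held 54.7% to 91.9% of their reads. The highest cell was not the same throughout: 15 different cells were highest in at least 1 of the 20 genes, and no cell was highest in more than 3.

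Of the proteases and their inhibitors, 12 of 19 measured members were more variable, against 7.97% of all genes. Mmp3, a stromelysin that cleaves matrix proteins, was the most variable named gene, with an excess of 5.19. It was present in 18 cells at a summed level of 491 CPM, with a lowest cell of 0, a median of 8.01 and a highest of 14681. That level rested partly on 1 cell, since it was 216.1 CPM without it, and it was 212.6 CPM in the right block. Mmp9, a gelatinase, was present in 14 cells, with a median cell of 0 and a highest of 5251. Mmp13, a collagenase with an excess of 4.40, was present in only 7 cells and stood at 205.35 CPM, or 110.8 without its highest cell. Slpi differed in kind, because it was present in 50 cells and yet had an excess of 4.33, from 2.82 in the lowest cell to 713 in the median and 50442 in the highest. Serpina3n, a serpin with close copies that can share its reads, was present in 11 cells at 84.6 CPM. Its level was 135.9 CPM as a mean over cells and 55.6 CPM under a stricter cell filter. At the other end of the list, Spint2, a membrane inhibitor of serine proteases, was steady with an excess of -1.10 and was present in 58 cells, and St14, the protease it restrains, had -0.25. In Epcam-negative cells Mmp3 was at 6650 CPM and Mmp9 at 42.8.

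Of the wound and stress keratins 4 of 4 were called more variable, and of the basal keratins 2 of 3, where 7.97% of all genes were. No difference between these lists was tested. Krt6b had an excess of 4.31 and was present in 17 cells, at a median of 2.86 CPM and a highest of 7164. Its summed level of 335 CPM was 207.3 without its highest cell and 158.5 in the right block. Krt16 had an excess of 3.87 and was present in 44 cells, with a median cell of 144.2 and a highest of 14989. Summed, Krt16 stood at 1066 CPM but at 515 in the right block. Krt17 and Krt6a were nearly everywhere (60 and 58 cells) and still had an excess of 2.54 and 2.34. Krt15, the basal keratin of the hair follicle bulge, was present in 12 cells with an excess of 3.99, at 210.9 CPM or 135.996 without its highest cell. Krt5 had an excess of 0.48, under the limit, and Krt14 of 1.03, just over it. Krt42, whose sequence is close to that of Krt16 and Krt17, had the second highest excess of the named genes (4.47). It was present in 30 cells, with 14.4 CPM in the median cell and 30304 in the highest. Reads shared between such near copies may have been counted for either gene, and this was not measured. Of the simple epithelial keratins Krt8 and Krt18 were measured, and both were more variable (1.92 and 1.62, in 15 and 35 cells).

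Terminal differentiation was partial. Of its 20 listed genes 10 reached 10 CPM, and 6 of these were more variable, against 7.97% of all measured genes. Sprr1b, Sprr1a and Sprr2h, which build the cornified envelope, led with an excess of 2.80, 2.56 and 2.49, in 14, 11 and 5 cells, and Sprr1b fell from 76.3 to 48.7 CPM and Sprr2h from 32.7 to 18.8 without the highest cell. Krt10, the main keratin of the spinous layer, had an excess of -0.04 and was present in 3 cells at 15.7 CPM. Sbsn, a secreted suprabasal protein, was lowest at -0.68. Filaggrin (Flg) was present in no cell. Krtdap, a keratinocyte differentiation protein named here after its values were seen, was present in 48 cells at 736 CPM, with 240 in the median cell and 3415 in the highest.

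Among 9 measured desmosome genes 1 was more variable, Dsp at 1.48, a share near the 7.97% of all genes, and Pkp3 was lowest at -0.78. The median excess was 0.42 for desmosomes, 0.75 for adherens and tight junctions and 0.45 for hemidesmosomes, against -0.02 over all genes. Adherens and tight junction genes had 2 of 10, both claudins: Cldn4 (3.60, present in 31 cells) and Cldn1 (2.59, in 21 cells). Cldn4 ran from 0 to 5217 CPM with a median cell of 41.8, and its summed 280 CPM was 172.4 in the right block. F11r, a tight junction adhesion molecule, was lowest of this list at -0.52 and was present in 58 cells. Hemidesmosome genes also had 2 of 10, among them Lama3, a laminin chain, at 1.30. Lama3 reached 411 CPM and was present in 44 cells. Among 11 measured epithelial regulators only Ehf, an epithelial ETS factor, was more variable (2.40, 23 cells), and Tfap2a was steady (-1.01). Both counts are near the shares of all genes, 7.97% and 9.41%.

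Inflammatory mediators were among the most uneven genes. Of 18 measured cytokines and chemokines 14 were more variable, against 7.97% of all genes. The median excess of the list was 2.24, against -0.02 over all genes. Cxcl14, a chemokine of normal epithelium, had an excess of 3.97 and was present in 42 cells, with a median cell of 79.6 CPM and a highest of 8556. Its summed level was 223.4 CPM in the left block and 676 in the right block. Il24, a cytokine of the interleukin family that signals through Stat3, was present in 23 cells, from 0 to 6319 CPM around a median of 5.66. It stood at 338 CPM over all cells, at 221.7 without its highest cell, and at 509 and 115.2 in the left and right blocks. In Epcam-negative cells Il24 was at 1.75 CPM. Il33, an alarmin, had an excess of 3.57 with all cells but was not called, since 28.5 CPM became 3.24 without 1 cell. Cxcl16 lay on the trend (-0.01) and was present in 51 cells.

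S100a8, a subunit of the calprotectin dimer of inflamed epithelium, had an excess of 3.96 and was present in 25 cells. It had a median cell of 17.2 CPM and a highest of 7588, and its summed 364 CPM was 224.2 without that cell and 203.4 in the right block. S100a9, its partner in the dimer, was present in 18 cells with an excess of 2.70, and S100a4, also listed with mesenchymal genes, in 32 cells with 2.49. No other S100 gene was more variable, which makes 3 of the 10 measured, against 7.97% of all genes. S100a13 alone was steady, at -1.07, and 1 of 10 is near the 9.41% of all genes. Lcn2, a siderophore-binding protein of innate defence, was present in 16 cells, with a median cell of 0 and a highest of 5791. Its 244.8 CPM was 157.9 without that cell, and 58.02 and 487 in the left and right blocks.

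Interferon and antigen presentation genes varied in part. Gbp2, an interferon-induced GTPase, had an excess of 3.93 and was present in 11 cells, at 115.9 CPM with all cells and 41.7 without the highest. In the left block it was also at 41.7 CPM, and in the right block at 212.2. Cxcl10, an interferon-induced chemokine, had the highest excess of its list (4.88) but was present in only 7 cells, and its 243.2 CPM fell to 87.1 without 1 of them. Against 7.97% of all genes, 4 of 8 measured interferon genes were more variable. So were 4 of 10 genes of MHC class I presentation, led by B2m, the proteasome subunit Psmb8 and H2-K1 at 2.60, 2.25 and 1.92. B2m was present in 61 cells, from 27.3 CPM in the lowest to 1322 in the median and 16260 in the highest.

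Apoe, which carries lipid in lipoproteins, was near 0 in some cells and among the highest genes in others. It was present in 39 of 62, with an excess of 3.74. Sorted by level, the cells left a gap between 353 and 809 CPM, with 36 cells below it (median 36.1) and 26 above it (median 9309). The gap was looked for after the values were seen. The 26 cells came from both blocks, 12 from the left and 14 from the right, and from rows A, B and C (7, 9 and 10 cells). Clu, another apolipoprotein, was present in 22 cells with an excess of 4.31, from 0 to 9256 CPM, and its summed 647 CPM was 419 without the highest cell and 417 in the right block. Fabp4 had an excess of 3.84 with 91.3% of its reads in 6 cells, and stood at 422 and 90.6 CPM in the left and right blocks. In Epcam-negative cells Apoe was at 222.65 CPM, Clu at 286.2 and Fabp4 at 6.90.

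**Figure D3:**
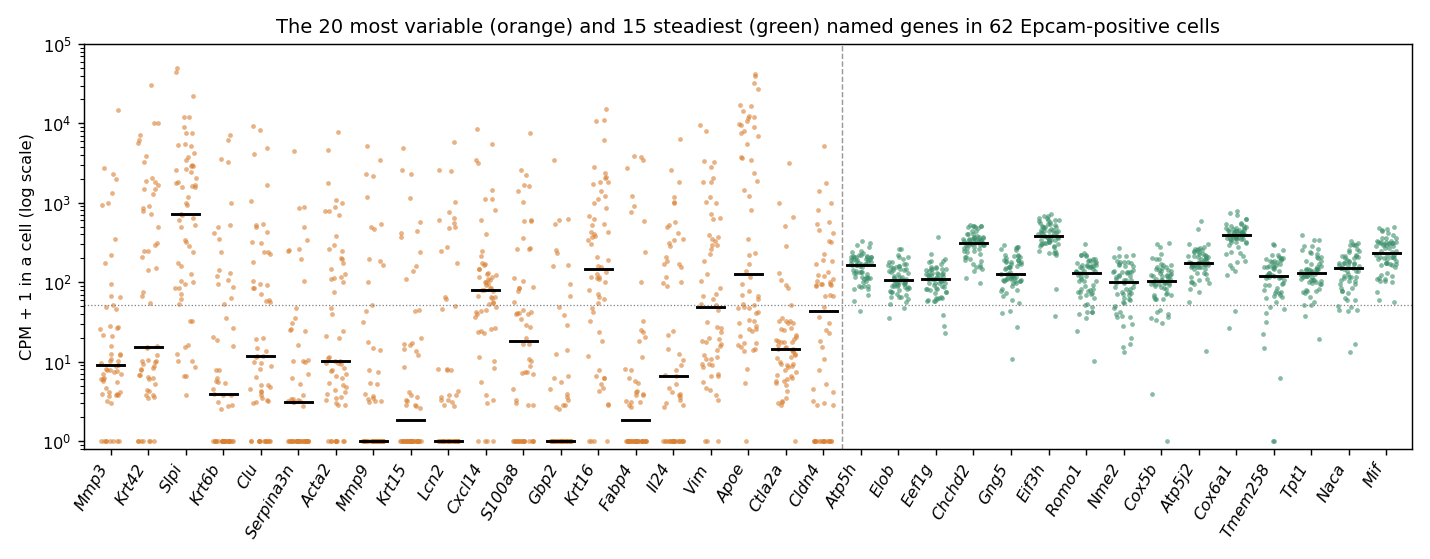
Each point is a cell (62 per gene), with CPM + 1 on a log axis and a black line at the median cell. The dotted line stands at 50 CPM, the level called present. The 20 most variable genes (orange) spread over several orders of magnitude, with a median cell of 0 for Mmp9, Lcn2 and Gbp2, while most cells of the 15 steady genes (green) lie near the median, with a few low cells, at 0 for Cox5b and Tmem258.

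Of 11 measured genes of the mesenchymal cytoskeleton and surface 5 were more variable and none steady, against 7.97% and 9.41% of all genes. Vim, the intermediate filament of mesenchymal cells, had an excess of 3.75 and was present in 30 cells, with 0 in the lowest cell, 47.3 CPM in the median and 9627 in the highest. In Epcam-negative cells Vim was at 5809 CPM, present in 98.5% of cells, with an excess of -0.82. Acta2, smooth muscle actin, was present in 24 Epcam-positive cells with an excess of 4.16, at 331 CPM. Myl9, a myosin light chain, was present in 7. At the low end Itgav, an integrin chain, had -0.50 and Tpm2, a tropomyosin, -0.25 in 58 cells. Mesenchymal matrix genes were more variable in 11 of 15 measured cases, led by Col1a2 (3.86), Col3a1 (3.28) and Fn1 (3.20). Without the highest cell Col1a2, present in 4 cells, fell from 45.5 to 18.04 CPM, and Col3a1 from 31.2 to 13.1. Sparc, also of this list and named after its values were seen, was present in 57 cells. Fn1, fibronectin, was present in 11 cells at 101.65 CPM. The summed fibroblast markers, of which Col1a2 is one, reached 4525 CPM in the highest cell, and their part in these values was not tested. Without the cell with most Col1a1 reads, 683 genes were called more variable and 816 steady. Of 8 EMT transcription factors 3 were measured, Prrx1, Tcf4 and Snai2, and none was called, with an excess of 0.02 to 0.39. Snai2 was present in 34 cells at 98.9 CPM, and Zeb1, Zeb2 and Snai1 were each at about 1 CPM. Ctla2a, an inhibitor of cysteine proteases with a near copy in Ctla2b, was present in 10 cells at 96.5 CPM (60.03 without the highest cell), against 6308 CPM in Epcam-negative cells.

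Hair follicle genes were more variable in 10 of 11 measured cases, against 7.97% of all genes. Wif1, an inhibitor of Wnt signals, was highest at 3.32 but present in 5 cells, at 53.6 CPM or 33.8 without 1 of them. Postn, a matrix protein, followed at 2.66, with 85.02 CPM, or 55.2 without its highest cell. Sostdc1, which blocks BMP and Wnt signalling from outside the cell, had 2.45 in 28 cells, at 311 CPM against 4.29 in Epcam-negative cells. Sox9, a follicle stem cell factor, was the exception at 0.66, present in 57 cells. Lgr5, the driver of the Cre and named for that reason, was present in 4 cells at 13.2 CPM, or 7.98 without its highest cell.

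Proliferation genes were present in a subset. In G2 and M phase 14 of 20 genes were more variable, and none steady, against 7.97% and 9.41% of all genes. Nusap1, Ube2c and Ccna2, which act in mitosis, led at 3.50, 2.78 and 2.37. Nusap1 fell from 25.1 to 14.2 CPM without its highest cell. Summed over the list, the level was 0 CPM in the lowest cell, 134.8 in the median and 14021 in the highest. Mki67 or Top2a was present in 20 of 62 cells, or 32.3% (95% Clopper-Pearson interval 20.9% to 45.3%, counting error only). In S phase 6 of 17 genes were more variable, and Pcna, the clamp of replication forks, was near the trend (-0.07) and present in 49 cells.

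Of 9 measured genes listed as EGF receptors, their ligands or Epha2, 4 were more variable, against 7.97% of all genes. Epgn, Areg and Ereg, ligands of the EGF receptor, had an excess of 3.02, 2.81 and 2.63 in 36, 48 and 29 cells. Hbegf, also a ligand, was called too. Egfr, Erbb3 and Erbb2, the measured receptors of the family, were not called, and Erbb2 was lowest at -0.67, next to the ligand Tgfa at -0.58. In the TGF-beta and BMP list 5 of 15 were more variable, led by Inhba, Id2 and Tgfbi (2.84, 2.76 and 2.14), and Inhba fell from 47.7 to 22.5 CPM without its highest cell. No Notch gene of 6 was more variable, where 7.97% of all genes were. Jag2, a Notch ligand, was steady at -1.09. In the AP-1 and early response list 7 of 20 were more variable, led by Fosl2, Fosb and Fos at 2.61, 1.91 and 1.46, although Fos was present in 58 cells. Dissociation with collagenase preceded the sort of all cells, and its part in the level of these genes was not tested. Among heat shock genes, 1 of 12 was more variable, Dnajb1 at 1.02, and 2 were steady, Hspe1 and Hsp90ab1 at -1.66 and -1.59. Over all genes the shares were 7.97% and 9.41%, and 1 of 12 is near the first.

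Metabolic genes ranged from steady to uneven. Of 21 measured glycolysis and hypoxia genes 4 were more variable and 3 steady, against 7.97% and 9.41% of all genes. Adm, Ndrg1 and Slc2a1 led with 3.08, 2.28 and 1.08, and Pgam1 and Pgk1, both enzymes of the pathway, were lowest at -2.28 and -1.15. Adm, a peptide hormone induced by hypoxia, was present in 9 cells, and its 61.5 CPM fell to 29.3 without 1 of them. In the antioxidant list 9 of 24 were more variable, led by Gsta4, Gclm and Slc7a11 (3.01, 2.33 and 2.13), and Gpx4 was steady at -1.61. Slc7a11, a cystine transporter, and Gclm, an enzyme subunit, both serve glutathione synthesis. Cholesterol synthesis had 4 of 14, led by Stard4 (2.41). The Ly6 family had 4 of 6, led by Ly6d (3.30, in 27 cells), a surface protein of keratinocytes, while Ly6e had -0.72 and was present in every cell. Of 11 measured p53 targets 1 was more variable, Cdkn1a at 1.09, and 1 steady, Bax at -1.08. Both counts are near the shares of all genes, 7.97% and 9.41%.

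**Figure D4:**
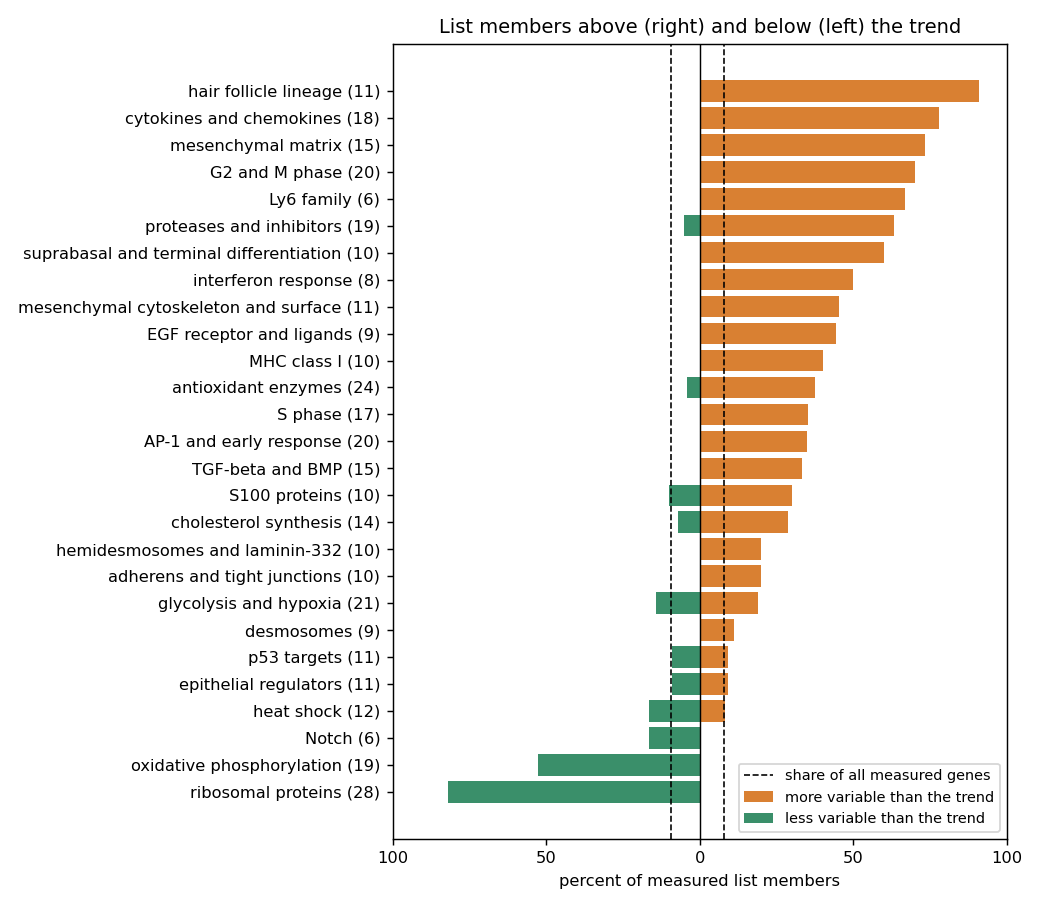
Each row is a list with at least 5 measured members (number in brackets). Orange bars to the right give the percent of members more variable than the trend, green bars to the left the percent less variable, and the dashed lines the shares of all measured genes, 7.97% and 9.41%. Hair follicle, cytokine and matrix lists lie at the top, ribosomal protein and oxidative phosphorylation lists at the bottom with no variable member.

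Of 28 measured ribosomal proteins on the list 23 were steady and none more variable, against 9.41% and 7.97% of all genes. Over all 81 ribosomal protein genes measured it was 54 and 0. Many of them have processed pseudogenes that can draw reads away, and Rps12 was present in no cell. Rpl19, with an excess of -3.52, ran from 4.65 to 63.8 CPM around a median of 24.7. Oxidative phosphorylation had 10 of 19 steady and none more variable, against the same shares of all genes. Its lowest was Cox7c at -3.81 and its highest Ndufa4 at 0.54. Among genes with at least 100 CPM outside the ribosome, Atp5h, a subunit of ATP synthase, was steadiest (-2.71). It was present in all 62 cells and ran from 42.5 to 325 CPM around 166.1. Elob, a subunit of elongin, had -2.67 and ran from 34.7 to 264.3 CPM. The elongation factor subunit Eef1g followed (-2.40), then Chchd2, a mitochondrial protein (-2.39), the G protein subunit Gng5 (-2.25), the initiation factor subunit Eif3h (-2.21) and Romo1 of the inner membrane (-2.17). The other 8 were Nme2, Cox5b, Atp5j2, Cox6a1, Tmem258, Tpt1, Naca and Mif, between -1.97 and -1.83.

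The highest cell of these 15 genes stood 1.66-fold to 3.42-fold above the median cell, against 70.8-fold or more for the variable genes with a median above 0. The 6 highest cells of the 15 genes held 18.9% to 24.7% of reads. Both sets were picked by their spread over these same cells, so such contrasts follow from the choice. Of the 803 steady genes, 412 had an excess of -1 or less in both blocks, and of the 680 variable genes 392 had 1 or more in both. Steady genes had shorter transcripts, with a median merged exon length of 2893 bases against 4552 over all measured genes and 4136 over variable genes, and their median mean level was 38.02 CPM against 42.1 and 66.9. Length and mean level were not held fixed in any count.

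The same measure in the Epcam-negative cells called 671 of 8795 genes more variable (7.63%) and 566 steady (6.44%). The genes variable in both populations made 38.97% of the Epcam-positive list and 39.5% of the Epcam-negative list. Only 82.8% of the Epcam-positive list was measured in Epcam-negative cells, and 71.4% of the Epcam-negative list in Epcam-positive cells. Genes not measured in the other population count as not shared, so both shares are lower than among genes measured in both. Steady genes shared 366, or 45.6% and 64.7%. Of the 20 named variable genes 15 were also called in Epcam-negative cells, 4 did not reach 10 CPM there (Krt6b, Fabp4, Il24 and Cldn4), and Vim was not called. The number of cells differs between the populations, and the difference was not tested.

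Genes that varied did so in several patterns. Spearman's rho over the 62 cells is given as a description, with no test, and the cells share a sort, a plate and a lane. Over all pairs of 3688 genes the median rho was 0.04, and 0.164% of pairs had 0.5 or more. Within lists, G2 and M phase genes moved most closely together (median rho 0.69), followed by MHC class I (0.49), S phase (0.46), the wound keratins (0.46) and glycolysis (0.43). Proteases and inhibitors did not (0.05), and Mmp3 and Mmp9 had a rho of 0.08, with both present in 4 cells, Mmp3 alone in 14 and Mmp9 alone in 10.

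Several pairs were picked after their values were seen. Krt5 and Krt14 had a rho of 0.79, and it was 0.89 and 0.69 in the left and right blocks. S100a8 and S100a9, which form 1 complex, had 0.75, and both were present in 16 cells. Apoe and Ucp2, a mitochondrial carrier, had 0.78 over all cells. Among the 36 cells below the Apoe gap rho was 0.23, and among the 26 above it 0.54. For Apoe and Sult2b1, a sulfotransferase of cholesterol, rho was -0.69 over all cells, and -0.18 below and -0.25 above the gap. The cells were split on Apoe itself, which narrows its range and can by itself lower rho. The values on either side therefore do not show whether the pairs go together within each set. Mki67 and Cenpe, a mitotic kinesin, had 0.70. Krtdap and Krt6a had 0.68, Il24 and Il1a 0.65, Gbp2 and H2-K1 0.57, Fos and Atf3 0.57, and Vim with the desmosomal cadherin Dsc3 -0.53.

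**Figure D5:**
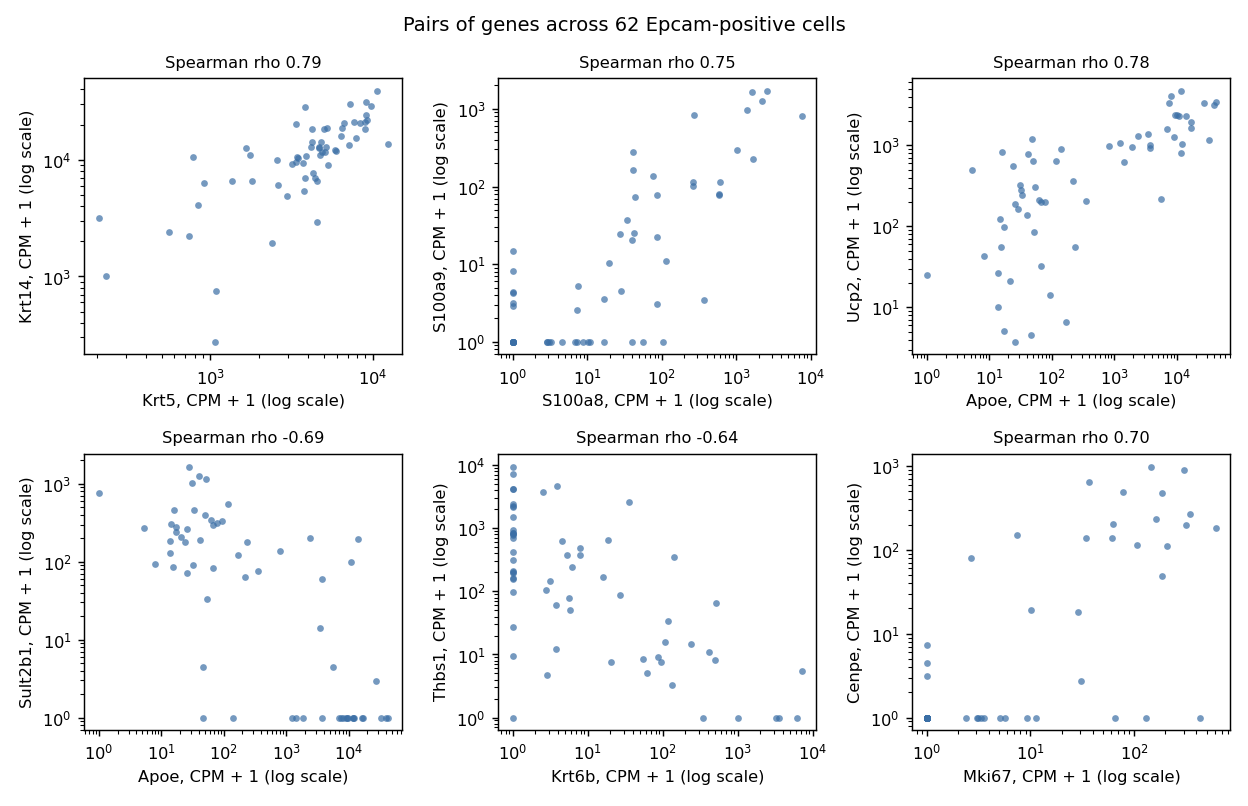
Each panel sets the CPM + 1 of 1 gene against that of another, both on log axes, with a point for each of the 62 cells and Spearman's rho above it. Krt5 and Krt14 rise together over all cells (0.79), Apoe has no cell between 353 and 809 CPM, and high Krt6b goes with low Thbs1 (-0.64).

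By the fixed rule, the closest partners of Krt6b were Sult2b1 (0.67), the uridine phosphorylase Upp1 (0.64) and the fatty acid carrier Fabp5 (0.62), and its lowest was Thbs1, a matrix glycoprotein (-0.64). Krt6b and Thbs1 were both present in only 1 cell, Krt6b alone in 16 and Thbs1 alone in 38. Krt42 went with the keratin Krt90 (0.62), Gsta4 (0.62) and Phlda3 (0.61), and against the proteoglycan Sdc1 (-0.52). Clu went with Aplp2 (0.57) and Apoe (0.56) and against Sox15 (-0.64). Partners of Slpi were Mgst1 (0.56), Ctsd (0.48) and Crip2 (0.46), those of Mmp3 included Mgst3 (0.52) and Pgf (0.51), and those of Lcn2 were led by Acpp (0.59). Serpina3n had Mmp2 first (0.63) and Ndufa4 last (-0.65), and its own near copy Serpina3i at 0.59. Acta2, Mmp9 and Krt15 reached 0.52 at most. Apoe and Krt6b, a pair picked after its values were seen, had a rho of -0.47, with both present in 6 cells, Apoe alone in 33, Krt6b alone in 11 and neither in 12.

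The bases before the start of both calprotectin subunits, which had a rho of 0.75, and of the most variable named gene, Mmp3, are shown to let their proximal promoters be compared. They are the 250 bases before the RefSeq start (GRCm38.p6), written 5′ to 3′ on the strand of the gene, at chr3:90668821-90669070 (S100a8, plus strand), chr3:90695722-90695971 (S100a9, minus) and chr9:7445572-7445821 (Mmp3, plus). Capitals mark matches to 7 motifs: the TATA box (TATAA, last 50 bases, strand of the gene) and, on either strand, elements known from AP-1 (TGANTCA), AP-2 (GCCNNNGGC), C/EBP (TTGCNNAA), Sp1 (GGGCGG), NF-Y (CCAAT) and KLF factors (CACCC).
S100a8: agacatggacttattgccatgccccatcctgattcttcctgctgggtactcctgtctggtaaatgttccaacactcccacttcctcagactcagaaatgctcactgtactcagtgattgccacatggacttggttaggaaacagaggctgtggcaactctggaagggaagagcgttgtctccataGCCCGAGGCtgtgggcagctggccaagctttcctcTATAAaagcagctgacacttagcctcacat
S100a9: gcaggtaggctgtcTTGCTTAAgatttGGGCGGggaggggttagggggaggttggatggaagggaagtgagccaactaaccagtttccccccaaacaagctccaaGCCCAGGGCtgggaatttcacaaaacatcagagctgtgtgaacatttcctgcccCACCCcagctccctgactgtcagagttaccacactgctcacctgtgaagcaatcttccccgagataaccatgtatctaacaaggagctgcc
Mmp3: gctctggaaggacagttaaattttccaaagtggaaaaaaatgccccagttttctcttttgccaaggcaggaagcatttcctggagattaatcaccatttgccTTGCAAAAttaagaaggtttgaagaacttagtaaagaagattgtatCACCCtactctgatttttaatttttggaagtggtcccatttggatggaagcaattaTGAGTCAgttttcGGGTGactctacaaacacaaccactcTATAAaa

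S100a8 and S100a9 both matched GCCNNNGGC, which is in the windows of 15.4% of the 27025 genes in the table, 65 bases before the start in S100a8 and farther away in S100a9. S100a8 also held TATAA at 30 bases, as 5.89% of genes do, and S100a9 did not. Mmp3 held TGANTCA at 46 bases (7.82% of genes), and TATAA at 7 bases before the listed start. A match is only a match of letters. These shares are over the windows as listed, and at least 1 listed start, that of Krt14, lies inside its gene. Promoter windows were found for 75.6% of the 680 variable genes, under the 80% needed, so that a comparison of motif shares between variable and steady genes would be void and is not given.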

How the data were processed

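Single cells sorted from mouse skin tumours were sequenced as reads of 50 bases. The authors deposited a table of unnormalized counts, with genes and spike-ins as rows and wells as columns. Per the submitters' processing notes, cutadapt 1.13, STAR 2.5.2b and HTSeq 0.6.0 were used with the genome build GRCm38. Which annotation release and strand setting were used is not given in the sources used here, and reads of overlapping genes and of near copies are uncertain. The table held 49585 genes and 92 spike-ins, and 49326 genes were given a symbol from GENCODE vM21.

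Counts were divided by the gene reads of each cell to give CPM. CV2 over the 62 cells was fitted against mean CPM, both log2, by lowess (span 0.3) over genes with a mean of at least 10 CPM, using Python 3.11.15, numpy 2.4.6, pandas 2.3.3, scipy 1.17.1 and statsmodels 0.14.6. For presence, cells were thinned once to 100000 reads. No test was made, since each population is 1 sample. Depth was 109743 to 730528 reads per cell, and PCR copies are not told apart in these reads, so that intervals cover counting error only. Wells were filled by sorting with a doublet gate, and no doublet caller was used. The script was tested on simulated counts.

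Named genes are the given markers and Trp53, the 20 highest in CPM and 10 highest per kb, the 20 most variable with at least 50 CPM in at least 10 cells, the 15 steadiest with at least 100 CPM and the 5 steadiest ribosomal proteins, up to 3 highest and 2 lowest of each list, and 3 highest and 1 lowest partner of the first 10 variable genes, with classes of genes left out as the text says. The members, lists and rules were chosen with earlier results of these data known, and other genes named were chosen after their values were seen. A few items that the rule would name are not reported here. Alternatives were other cell filters, scalings (edgeR 4.0.16 for TMM, size factors, spike-ins), level filters, trends, thinning, plate columns, presence limits and single cells left out.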

Additional observations from a re-analysis of the deposited data

Results flagged for a closer look

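The well labelled as Epcam-positive with 0 cells, in plate row B, held 99241 gene reads, and drew attention because it is a control outside every value of the report. It held 8248 genes with a read, and Krt14 at 9029, Krt5 at 3738, Krt17 at 2882, Vim at 1380 and Col1a1 at 10.1 CPM. The other well without a cell, in row E, held 4018 gene reads and 1769 genes, with spike-ins at 76.2% of gene and spike-in reads against 7.66% in the row B well. The source of these reads was not tested.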

How the results depend on the processing

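The number of more variable genes (680) was 366 with a minimum mean of 50 CPM and 1198 when the highest cell was not left out, and the number of steady genes (803) was 480 with spike-in scaling, 321 with a minimum mean of 50 CPM and 1594 with a minimum of 1 CPM. Another minimum changes the genes tested and refits the trend, and the shares moved as well. More variable were 9.75% of genes with a minimum of 50 CPM and 6.59% with 1 CPM, against 7.97%. Steady were 8.55% and 12.5%, against 9.41%. The 1198 follow from the construction of the rule. The cause of the change with spike-in scaling was not tested. Under the other settings the counts lay within 1.5 times the main ones. Like counts did not mean the same genes: spike-in scaling shared 353 of the 680 variable genes (51.9%) and 330 of the 803 steady genes (41.1%), and moved 29 of 40 excess values of named genes. Plate columns 1 to 12 shared 400 of the variable genes (58.8%) and columns 13 to 24 shared 420 (61.8%). All 20 named variable genes were called in each of 15 settings, and all 15 named steady genes in 13 of them, the exceptions being no filter on cells (12 of 15) and spike-in scaling (8 of 15). Leaving out the cell with most Col1a1 reads or the cell with the highest spike-in share, both chosen after seeing the data, gave 683 and 673 variable and 816 and 804 steady genes. The rho of Mmp3 with Mmp9 turned from 0.08 to -0.012 in plate columns 1 to 12, and the cause was not tested. With thinned reads 6 rho values moved by more than 0.1 and 68 did not. In plate columns 1 to 12 such moves numbered 25, and in columns 13 to 24 they numbered 20. Levels that moved over 1.5-fold stand beside their genes in the report. No paired analysis was possible because each population is 1 sample and no replicate number is shared by label. Depth limits presence: at 50 CPM a cell thinned to 100000 reads holds 5 reads of a gene.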
